A study of Triticum aestivum with 12 samples.

Results

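Ribosomes are made of ribosomal RNA and of a set of ribosomal proteins, each usually present once per ribosome. Plant cells hold 3 kinds. Cytosolic ribosomes have a small (40S) and a large (60S) subunit, while the ribosomes of plastids and mitochondria are of bacterial type, built from proteins whose genes lie partly in the organelle and partly in the nucleus. In a developing cereal grain, ribosomes of the starchy endosperm make the storage proteins, and the mature embryo keeps a stock of ribosomes that it uses at germination. The genes described here were the protein-coding genes of the deposited wheat (Triticum aestivum) table whose gene ontology terms include structural constituent of ribosome. There were 153 of them among 12357 protein-coding genes and 25269 genes in all. They lay on 1A (53), 1B (51) and 1D (49), the only chromosomes that hold the gene models of this table, so ribosomal protein genes of other chromosomes are not covered.

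RNA was sequenced from immature grain in 3 libraries for each of 4 groups. HP30 and HP20 are grain of the mutant line HPm512, labelled as having high antioxidant activity, at 30 and 20 days after anthesis. WT30 and WT20 are grain of the cultivar Zhoumai22, labelled wild type, at 30 and 20 days. The labels give neither the mutated gene, nor how many plants went into a library, nor whether the 3 libraries of a group stand for different plants. The p-values therefore speak only of the spread among these libraries, and that spread may be technical. The question was how ribosomal protein transcripts differ between the cultivars at each age and between the ages in each cultivar.

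The table describes 30 of the 153 genes and gives 144 of them a KEGG orthology entry, which names the protein. Where a description named a 40S, 60S or 50S protein, the entry named the same protein in 23 of 23 genes. By description first and entry second, 65 genes were of cytosolic type (23 small subunit, 42 large subunit) and 76 of bacterial type (29 small, 47 large). Among the bacterial type, 1 gene was described as mitochondrial and 1 as chloroplastic, and 5 others were described as 50S proteins. Gene ontology terms name an organelle for 9 of the 76: the mitochondrion for 3 (both tested copies of L21, and S13, which was not tested) and the plastid for 6. The gene described as mitochondrial, an L2, is among the 6 with a plastid term, so its description and its terms conflict. The other 67 have no organelle term. Another 9 genes had no entry and stay unassigned. The last 3 carry the entry of a bifunctional dehydroquinate dehydratase and shikimate dehydrogenase, an enzyme of the shikimate pathway to aromatic amino acids, and are kept apart.

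A gene was tested when at least 3 of the 12 libraries had an FPKM of 1 or higher, FPKM being a level per transcript length and library size. This kept 102 of the 153 genes: 53 of cytosolic type (16 small, 37 large subunit), 38 of bacterial type (11 small, 27 large), 8 unassigned and all 3 with the shikimate enzyme entry. Of the 51 genes left out, 27 had no read in any library and 43 stayed under 20 counts in every library. The bacterial type passed the filter unevenly. Among 49 nuclear gene models with the entry of a protein that plastid genomes also encode, 30 were left out and 17 had no read. Among the 27 other bacterial-type genes, 8 were left out and 1 had no read. All 3 genes for L40e, which is made as a fusion with ubiquitin, and all 3 for S15e were left out.

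Library totals, recovered from counts and FPKM, were 59.3 to 73.6 M reads. Nutrient reservoir genes (43 genes, mostly seed storage proteins) took 23.4 to 29.8% of the coding counts in HP30, 4.5 to 4.54% in WT30, 17.04 to 31.6% in HP20 and 34.6 to 36.2% in WT20, so the rest of the coding genes share unequal remainders. Of the 6 embryo marker genes (described as Em, late embryogenesis abundant or agglutinin) all were detected, with summed FPKM of 1369.6 to 2539 in HP30, 2782 to 2955.5 in WT30, 26.4 to 136 in HP20 and 51.2 to 75.6 in WT20. Of 11 starchy endosperm markers (described as gliadin, glutenin or purothionin) 10 reached 1 FPKM, with summed FPKM of 24161 to 30475 in HP30, 4945 to 5056 in WT30, 17898 to 32701 in HP20 and 37844 to 39214 in WT20. Of 11 green pericarp markers (chlorophyll a-b binding proteins) 3 reached 1 FPKM, and the summed FPKM of the list was 0.801 to 1.69 in HP30, 0.048 to 0.408 in WT30, 4.02 to 8.11 in HP20 and 8.62 to 11.4 in WT20. Of these 11 genes, 8 had no read in HP30, 8 none in WT30, 3 none in HP20 and 2 none in WT20. No embryo or endosperm marker was at 0 in any group. The 3 HP20 libraries differed in storage share, with 22.97% in replicate 1, 17.04% in replicate 2 and 31.6% in replicate 3. Ribosomal RNA took 972 to 1257 RPM (reads scaled to the library total) in WT30 replicate 3 and WT20 replicates 2 and 3, against 377 to 533 in the other 9 libraries. Summed ribosomal protein and embryo transcripts were both highest in WT30, where storage transcripts were lowest, and the part of embryo, storage and ribosomal RNA transcripts in the results below was not tested. In whole grain, a different share of cells of a type and a different amount of RNA per cell cannot be told apart.

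Summed over the 153 genes, ribosomal protein transcripts were most abundant in WT30 and least abundant in WT20. They made up 4712, 4240.3 and 4584 RPM in HP30, 8156, 8187 and 8243 in WT30, 4079, 3864 and 3425 in HP20, and 2580, 2807 and 2807 in WT20. No library of any group overlapped with a library of another group. The HP30 mean was 0.551 times that of WT30, and the HP20 mean was 1.39 times that of WT20. With age, the mean was 1.19 times as high in HP30 as in HP20, and 3.00 times as high in WT30 as in WT20. Measured as a share of coding counts without the nutrient reservoir genes, these ratios were 0.697, 1.25, 1.30 and 2.33, so each kept its direction on this scale, and 3 of them lay closer to 1 while that of HP30 over HP20 lay further from it. The cytosolic genes held 91.3 to 92.0% of these reads as group means and the bacterial-type genes 4.74 to 5.28%. The cytosolic small subunit genes held 33.6% in HP30, 35.8% in WT30, 33.9% in HP20 and 32.3% in WT20.

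**Figure D1:**
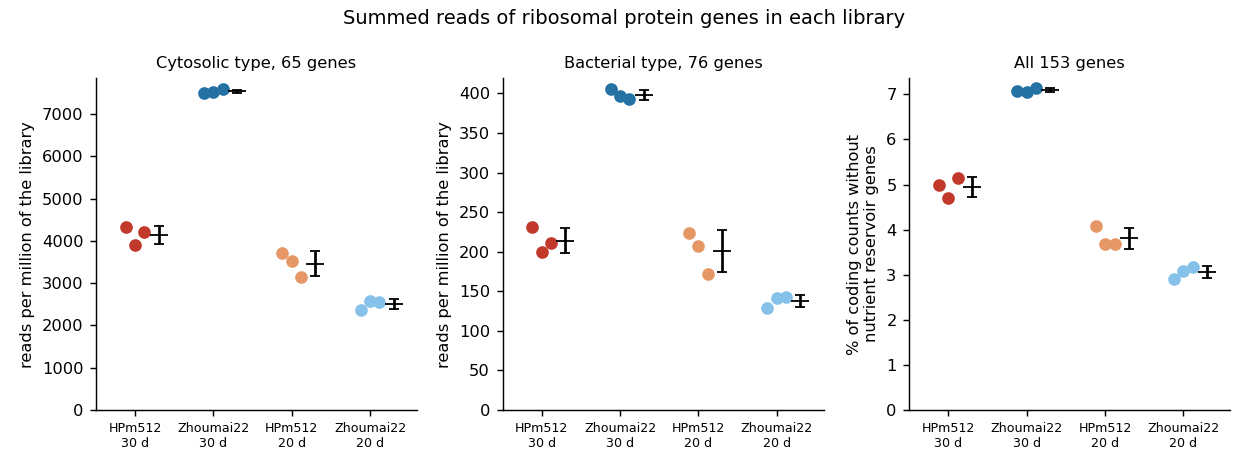
Summed reads of ribosomal protein genes in each of the 12 libraries: RPM (reads scaled to the library total) for the cytosolic type (left) and the bacterial type (middle), and the percent of coding counts without nutrient reservoir genes for all 153 genes (right). Points are libraries, bars are the mean and SD of 3; in each panel WT30 lies highest and WT20 lowest, and the HP30 and HP20 libraries lie between them.

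Levels differed widely between the types. Over the 12 libraries the 53 tested cytosolic genes had a median FPKM of 82.5 (0.665 to 362), and the 38 bacterial-type genes a median of 4.27 (0.996 to 31.7). The highest cytosolic gene was a copy of S4e, a small subunit protein, on 1D (TraesCS1D02G101600, 89239188 to 89241444 in the table's coordinates, whose genome build is not given in the sources used here). Its FPKM was 365, 328 and 356 in HP30, 665, 654 and 679 in WT30, 286, 265 and 219 in HP20, and 162, 177 and 188 in WT20. The 4 groups did not overlap, with WT30 highest and WT20 lowest. The highest large subunit gene was a copy of L18e on 1A (TraesCS1A02G096500, 92564927 to 92567805), at 345, 283 and 312 FPKM in HP30, 497, 504 and 506 in WT30, 219, 183 and 163 in HP20, and 111, 122 and 127 in WT20. It stood in the same order of groups, again without overlap. Cytosolic genes were also the more even between replicates. The median SD of log2 values within a group was 0.083 in HP30, 0.059 in WT30, 0.118 in HP20 and 0.075 in WT20 for cytosolic genes, and 0.258, 0.160, 0.219 and 0.225 for bacterial-type genes, which have fewer reads.

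The order WT20, HP20, HP30, WT30 from low to high was common among these genes. On FPKM divided by the TMM factor, a scaling that assumes most genes unchanged, 65 of 102 had it, against 16.5% of all 5723 genes tested. That assumption may not hold with age, since 31.8% of all genes were called higher and 31.9% lower in WT30 over WT20. On this scale the order was met by 40 of 53 cytosolic genes and 19 of 38 bacterial-type genes. On the deposited FPKM, 55 of 102 genes had it, against 18.4% of all genes tested, with 33 of 53 cytosolic and 16 of 38 bacterial-type genes. The group means behind an order can lie closer than their spread, so this is a count of orders only.

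At 30 days, ribosomal protein transcripts were lower in the mutant than in wild type. Of the 102 genes, 53 were called lower in HP30 and 2 higher at an adjusted p under 0.05 (edgeR quasi-likelihood test, Benjamini-Hochberg over 5723 genes), while 9.3% of all genes tested were called lower and 13.6% higher. The median log2 fold change was -0.41 over the ribosomal protein genes and -0.034 over all genes. On FPKM, 93 of the 102 had every HP30 library below every WT30 library, against 54.8% of all genes, and 2 had every HP30 library above, against 8.33%. The called falls lay mostly in the cytosolic class (40 of 53 genes), with 15 of 16 small and 25 of 37 large subunit genes. The median log2 fold changes of the types were alike, at -0.43 for the cytosolic and -0.41 for the bacterial type. Every HP30 library lay below every WT30 library in 52 of 53 cytosolic and 34 of 38 bacterial-type genes. In the bacterial type 11 of 38 fell and 1 rose, in the unassigned genes 2 fell and 1 rose, and the 3 shikimate enzyme genes had log2 fold changes of -0.47 to -0.17 without a call.

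**Figure D2:**
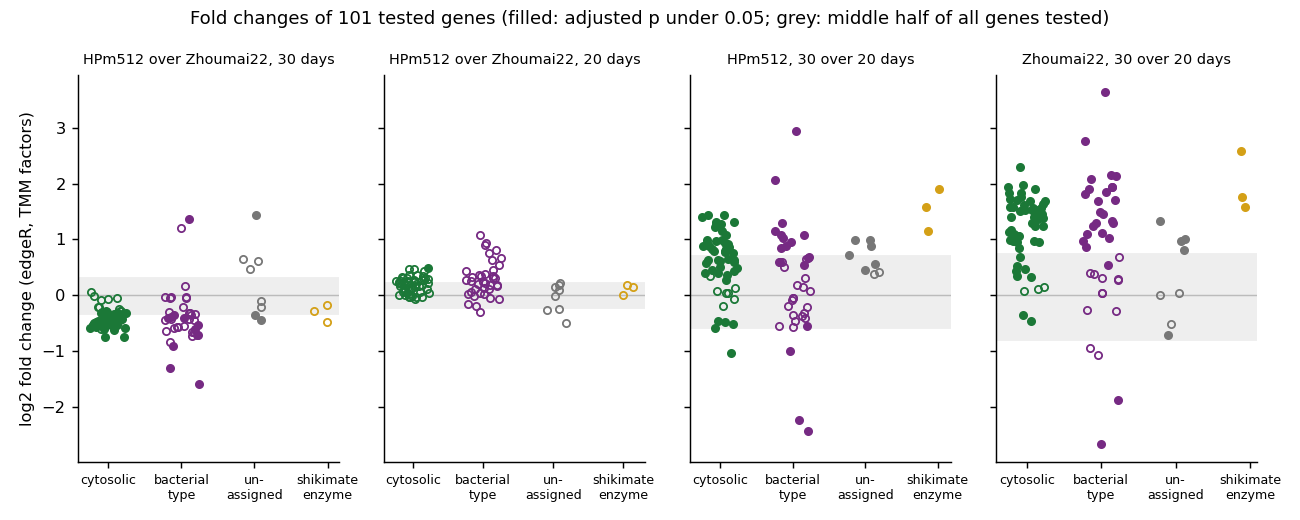
Log2 fold changes (edgeR with TMM factors) of 101 tested genes by class in the 4 comparisons, where filled points are called at an adjusted p under 0.05 and the grey band holds the middle quartiles of all genes tested. At 30 days nearly all cytosolic genes lie below 0, and in Zhoumai22 most lie above 0 between 20 and 30 days; L11e on 1B, at 0 in 8 of 12 libraries, is left out.

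For S4e on 1D the log2 fold change of HP30 over WT30 was -0.46 ± 0.11 (SE, n = 3 each; edgeR adjusted p = 0.00728). Fold changes of this kind are on the TMM scale, while ratios of FPKM use library totals alone. At 30 days the median of all genes was -0.034 with TMM factors and -0.51 with library totals. Falls in HP30 are therefore smaller, and rises larger, on the TMM scale than in FPKM. S4e on 1D averaged 349.6 ± 19.4 FPKM in HP30 and 666 ± 12.3 FPKM in WT30 (SD, n = 3 each). S15ae, a small subunit protein, fell in all 3 of its copies (log2 -0.75 to -0.58), and so did S17e, L30e and L4e. S27ae, whose product is a fusion of ubiquitin and a small subunit protein, fell in both tested copies (-0.59 and -0.52). The largest called fall of a cytosolic gene was L35ae on 1B (TraesCS1B02G409800), a large subunit protein with 11.8, 11.7 and 10.8 FPKM in HP30 and 24.3, 27.7 and 27.7 FPKM in WT30. Its groups did not overlap, and its log2 fold change was -0.75 ± 0.17 (edgeR adjusted p = 0.00728).

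The 3 copies of P2 had fold changes near 0 at 30 days. P2 is an acidic protein of the stalk of the large subunit, the site where elongation factors bind. Its 1A copy (TraesCS1A02G277500) had 139, 111 and 131 FPKM in HP30 and 182, 184 and 176 FPKM in WT30, so the groups did not overlap on this scale. On the TMM scale its log2 fold change was -0.04 ± 0.091 (edgeR adjusted p = 0.802), and those of the 1B and 1D copies were 0.06 and -0.01. The P2 copies are therefore near the median of all genes (-0.034), while the cytosolic median was -0.43. P2 was singled out after its values were seen.

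Among the bacterial-type genes with at least 5 FPKM in the higher group, the largest falls at 30 days were L21 on 1B and L11 on 1A, both large subunit proteins, with L21 placed in the mitochondrion by its terms. An S18 copy on 1B below that level (TraesCS1B02G257800, mentioned after its values were seen) had 1.08, 0.595 and 0.838 FPKM in HP30 and 3.26, 4.27 and 2.84 FPKM in WT30 (log2 -1.57 ± 0.46, edgeR adjusted p = 0.0245). L21 on 1B (TraesCS1B02G415900, 640864907 to 640867942) had 3.63, 2.42 and 2.74 FPKM in HP30 and 9.86, 9.98 and 9.99 FPKM in WT30. Its WT30 libraries lay far above its HP30 libraries (log2 -1.29 ± 0.15, edgeR adjusted p = 4.34e-05). L11 on 1A (TraesCS1A02G147700), a protein of the region where elongation factors act, had 3.37, 3.69 and 3.59 FPKM in HP30 and 9.16, 9.15 and 9.28 FPKM in WT30. It fell by 0.90 on the log2 scale (SE 0.25, edgeR adjusted p = 0.0191), a call that was lost without HP30 replicate 1 (-0.85), WT30 replicate 1 (-0.90) or WT30 replicate 2 (-0.88). S10 on 1B (TraesCS1B02G432900, 657319301 to 657322437), a small subunit protein and the highest bacterial-type gene, had 44.2, 28.996 and 39.5 FPKM in HP30 and 68.6, 67.4 and 67.3 FPKM in WT30, without overlap (log2 -0.38 ± 0.12, edgeR adjusted p = 0.042). This call was lost without HP30 replicate 2 (-0.26), WT30 replicate 1 (-0.37), WT30 replicate 2 (-0.37) or WT30 replicate 3 (-0.41). It was also lost with no filter on low FPKM (-0.40), with the 6 libraries of the pair alone (-0.36) and without the 3 libraries rich in ribosomal RNA (-0.43). L22 on 1D (TraesCS1D02G025100), at 7.34 ± 0.441 FPKM in HP30 and 12.99 ± 0.891 FPKM in WT30, was also at the edge of the threshold (log2 -0.35 ± 0.12, edgeR adjusted p = 0.0439). It lost its call without any 1 of the 6 libraries compared (-0.40 to -0.32). The call was also lost with no filter on low FPKM (-0.37), with the replicate block (-0.35), and without HP20 replicate 2 (-0.35) or the 3 libraries rich in ribosomal RNA (-0.34). L2 on 1D (TraesCS1D02G010400, 5445598 to 5450155), a core protein of the large subunit whose gene is described as mitochondrial but carries a plastid term, had 12.2, 11.9 and 10.8 FPKM in HP30 and 22.2, 20.5 and 20.9 FPKM in WT30. The groups did not overlap, and the gene was called lower in HP30 (log2 -0.40 ± 0.078, edgeR adjusted p = 0.00263).

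Only 2 of the 102 genes were called higher in HP30 than in WT30. L28 on 1A (TraesCS1A02G001800, 1144333 to 1145934), a bacterial-type large subunit protein, had 3.81, 3.12 and 3.04 FPKM in HP30 and 1.55, 1.76 and 2.03 FPKM in WT30. Each HP30 library exceeded each WT30 library (log2 1.37 ± 0.17, edgeR adjusted p = 5.4e-05). The other tested copy of L28, on 1D, had a log2 fold change of -0.34 and was not called. The unassigned gene TraesCS1D02G246000 on 1D had 5.42, 4.85 and 4.67 FPKM in HP30 and 1.75, 2.69 and 3.22 FPKM in WT30, again without overlap (log2 1.44 ± 0.23, edgeR adjusted p = 0.000551). With libraries scaled to equal FPKM totals, which moves the median of all genes to -1.14, both were still positive but not called (0.27 and 0.34). The count of genes called lower was 63 with DESeq2, where 11.9% of all genes were called lower. The count was 44 without the 3 libraries rich in ribosomal RNA, a fit for which no share over all genes is given here. It was 88 with library totals alone, a scaling that moves the median of all genes to -0.51 and calls 45.3% of all genes lower. The 11 bacterial-type falls became 5 without WT30 replicate 1, 6 without WT30 replicate 2 and 7 without HP30 replicate 2. Relative to the median of all genes, the ribosomal protein genes lay at -0.37 under library totals and at -0.38 with TMM factors. A change of scaling shifts all genes nearly alike, so this likeness was fixed in advance and is no separate support.

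At 20 days few single genes passed the test between the cultivars, and most values were slightly higher in the mutant. Of the 102 genes, 1 was called higher in HP20 and 0 lower (edgeR; 0 lower also at an unadjusted p under 0.05 and with DESeq2 and limma), while 0.419% of all genes tested were called higher and 1.87% lower. The median log2 fold change was 0.20, against 0.011 over all genes, and 86 of the 102 values were positive. At an unadjusted p under 0.05, 35 were higher, of 550 such genes among the 5723. On FPKM, 75 of the 102 had every HP20 library above every WT20 library, against 38.4% of all genes, and 0 had every HP20 library below, against 4.3%. The called gene was L23e on 1D (TraesCS1D02G146100, 201641725 to 201643692), a large subunit protein that the table describes as ribosomal protein L17. It had 35.6, 39.7 and 34.3 FPKM in HP20 and 18.9, 19.2 and 24.5 FPKM in WT20. The groups did not overlap (log2 0.50 ± 0.11, edgeR adjusted p = 0.0369). The call was lost with the replicate block, without WT30 replicate 1 or 2, HP20 replicate 1 (0.52) or 2 (0.49), or WT20 replicate 1 (0.46) or 2 (0.44). It was also lost with the 6 libraries of the pair alone (0.50) and without WT20 replicates 2 and 3, with or without WT30 replicate 3 (0.60).

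The number of genes called at 20 days changed with the scaling and with single libraries. It was 12 without HP20 replicate 3 and 0 without WT20 replicates 2 and 3, fits for which no share over all genes is given here. DESeq2 called 23 higher (3.77% of all genes), and library totals alone called 71, with the median of all genes at 0.32 and 24.3% of all genes called higher. The cytosolic gene S7e on 1A (TraesCS1A02G129100), a small subunit protein, missed the threshold: it had 22.9, 21.9 and 17.6 FPKM in HP20 and 10.4, 14.2 and 11.7 FPKM in WT20, without overlap, and a log2 difference of 0.47 ± 0.11 (edgeR adjusted p = 0.0523). It was chosen for mention after its values were seen.

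In the mutant, most ribosomal protein genes were higher at 30 than at 20 days. Of the 102, 63 rose and 9 fell, while 29.9% of all genes tested were called higher and 27.9% lower (edgeR). The median log2 fold change was 0.61, against 0.076 over all genes. On FPKM, which is not TMM scaled, 37 had every HP30 library above every HP20 library and 24 had every one below, against 15.5% and 50.1% of all genes. In the cytosolic class 40 of 53 genes rose and 5 fell, in the bacterial type 14 rose and 4 fell, in the unassigned genes 6 of 8 rose, and the 3 shikimate enzyme genes all rose. With library totals alone, which puts the median of all genes at -0.46, 34 were called higher and 22 lower, against 13.5% and 47.3% of all genes. Relative to the median of all genes the ribosomal protein genes lay at 0.54 on both scalings. That likeness is also fixed in advance, since a scaling shifts all genes nearly alike.

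The rises included S10 on 1B, at 44.2, 28.996 and 39.5 FPKM in HP30 and 14.8, 12.8 and 11.4 FPKM in HP20 (log2 2.07 ± 0.13, edgeR adjusted p = 4.47e-08). Each HP30 library was far above each HP20 library. The shikimate enzyme genes on 1A (TraesCS1A02G220800) and 1D (TraesCS1D02G222300) rose by 1.91 ± 0.19 and 1.58 ± 0.15 on the log2 scale. S4e on 1D rose by 0.99 ± 0.11 (edgeR adjusted p = 4.91e-06), and L18e on 1A by 1.27 ± 0.11 (edgeR adjusted p = 6.56e-07).

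The genes that fell in the mutant came from several proteins, of cytosolic and of bacterial type. All 3 copies of L23e fell: the 1B copy (TraesCS1B02G166100, 289522244 to 289524750) had 13.4, 11.04 and 10.51 FPKM in HP30 and 34.5, 35.7 and 33.5 FPKM in HP20. Its groups were well separated (log2 -1.03 ± 0.11, edgeR adjusted p = 4.56e-06), and the 1A (TraesCS1A02G148400) and 1D copies had -0.59 and -0.46. Both tested copies of L28 fell. The 1D copy (TraesCS1D02G003700, 2066324 to 2067459) had 1.08, 1.08 and 0.851 FPKM in HP30 and 6.84, 7.08 and 6.89 FPKM in HP20 (log2 -2.23 ± 0.21, edgeR adjusted p = 1.14e-06), and the 1A copy had a log2 fold change of -0.99 ± 0.16. The cytosolic genes S7e on 1A (-0.48 ± 0.11) and L36e on 1A (TraesCS1A02G284800, -0.51 ± 0.1), a large subunit protein, fell as well. S19 on 1A (TraesCS1A02G011100), a bacterial-type small subunit protein, had 0.471 and 0.358 FPKM in 2 HP30 libraries and no read in the other, and 2.67, 2.70 and 1.37 FPKM in HP20. Its log2 fold change of -2.41 had an SE of 0.82 (edgeR adjusted p = 0.0227), and the call was lost without HP20 replicate 1 (-2.26) or 2 (-2.32). L21 was the only protein with copies called in opposite directions in the mutant. Its 1B copy fell (-0.55 ± 0.15, edgeR adjusted p = 0.00781) and its 1A copy (TraesCS1A02G388500) rose (0.54 ± 0.11, edgeR adjusted p = 0.00134). The rise of the 1A copy depended on scaling, since library totals alone gave -0.0034.

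In wild type the change with age was larger. Of the 102 genes, 79 rose and 5 fell between 20 and 30 days, while 31.8% of all genes tested were called higher and 31.9% lower (edgeR). The median log2 fold change was 1.24, against -0.0095 over all genes. On FPKM, 87 had every WT30 library above every WT20 library, against 44.3% of all genes, and 3 had every one below, against 1605 of all 5723 genes. All 16 small subunit cytosolic genes rose (log2 0.53 to 1.68), 32 of 37 large subunit genes rose and 2 fell, and in the bacterial type 24 of 38 rose and 2 fell. The 4 unassigned genes that rose and the 3 shikimate enzyme genes, all risen, make up the rest. The count of 79 lay between 69 and 96 under the alternatives tried. The 69 were of 80 ribosomal protein genes, where only genes with FPKM of 5 or more were tested. The 96 were of 102 with equal FPKM totals, a scaling that called 62.3% of all genes higher.

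S4e on 1D rose by 1.68 ± 0.11 (edgeR adjusted p = 3.28e-08). The largest rises were S16 on 1A, S10 on 1B and the 1A shikimate enzyme gene. S16 (TraesCS1A02G363900, 544139176 to 544140713), a bacterial-type small subunit protein, had 5.52, 5.72 and 5.32 FPKM in WT30 and 0.4, 0.196 and 0.484 FPKM in WT20. The WT30 values were all above 5 and the WT20 values all below 0.5 (log2 3.63 ± 0.41, edgeR adjusted p = 4.57e-06). S10 on 1B had 68.6, 67.4 and 67.3 FPKM in WT30 and 7.77, 8.67 and 8.98 FPKM in WT20 (log2 2.76 ± 0.13, edgeR adjusted p = 4.31e-09). The 1A shikimate enzyme gene rose by 2.57 ± 0.2. The 1B copy of L11e (TraesCS1B02G144300) was also called, with 140, 0 and 144 counts in WT30 and no count in WT20, 0, 58 and 0 in HP30 and 49, 0 and 0 in HP20. Its reads came and went between replicates while its 1A and 1D copies were even, so no fold is given for it.

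The falls in wild type were again of L28 and L23e. L28 on 1A had 1.55, 1.76 and 2.03 FPKM in WT30 and 9.63, 9.34 and 9.63 FPKM in WT20. The groups were far apart (log2 -2.66 ± 0.17, edgeR adjusted p = 2.84e-08), and the 1D copy fell by 1.86 on the log2 scale (SE 0.2). L23e on 1A and 1B had log2 fold changes of -0.34 and -0.45, while its 1D copy rose (0.33 ± 0.11, edgeR adjusted p = 0.0154). These small L23e changes depend on scaling and libraries: with library totals alone the 1A and 1B copies had -0.10 and -0.22 and were not called, nor were they without WT20 replicates 2 and 3 (-0.20 and -0.37), and the 1D rise was not called without WT30 replicate 1 (0.30) or 3 (0.29) or WT20 replicate 1 (0.25) or 2 (0.23). The unassigned gene on 1D (TraesCS1D02G246000) had -0.70 ± 0.23 (edgeR adjusted p = 0.0164), a call lost without WT30 replicate 1 (-0.49), with library totals alone (-0.45) and with limma (-0.36 and -0.47), and turned to 0.36 with equal FPKM totals.

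The comparisons with age in the 2 cultivars share no library. Joint calls were counted for the ribosomal protein genes only, so the counts below have no joint share over all genes beside them. Singly, 29.9% of all genes tested were called higher and 27.9% lower with age in the mutant, and 31.8% and 31.9% in wild type. Of the 102 genes, 61 rose in both, 4 fell in both, 15 had no call in the mutant and rose in wild type, 3 fell in the mutant and rose in wild type, and 1 rose in the mutant and fell in wild type. The 3 were L21 on 1B, S7e on 1A and L23e on 1D, and the 1 was TraesCS1D02G246000, whose fall in wild type did not hold under those alternatives. P2 on 1A rose by 0.41 ± 0.091 in the mutant and 0.47 ± 0.092 in wild type on the log2 scale, less than the cytosolic medians of 0.65 and 1.39, and its 1D copy (0.05 and 0.12) was called in neither.

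**Figure D3:**
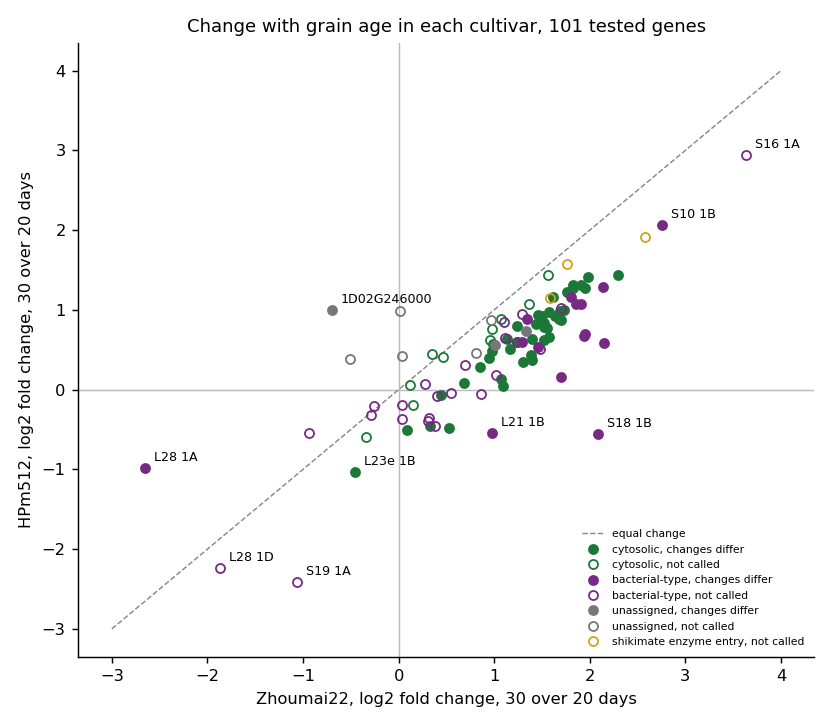
Log2 fold change between 30 and 20 days of each of 101 tested genes in HPm512 (vertical) and Zhoumai22 (horizontal); filled points are genes whose change differed between the cultivars (adjusted p under 0.05) and the dashed line marks equal change. Most points lie below the line, and L28 on 1A and TraesCS1D02G246000 lie above it.

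The test of the difference itself, the change with age in the mutant minus that in wild type, called 58 genes lower and 2 higher, while 10.9% of all genes tested were called lower and 13.1% higher (edgeR). The median was -0.59, against -0.021 over all genes. All 16 small subunit cytosolic genes were called lower (-1.05 to -0.44), as were 26 of 37 large subunit genes and 14 of 38 bacterial-type genes. By type, the median was -0.59 for the cytosolic and -0.68 for the bacterial type. The largest negative differences among genes with at least 5 FPKM in the higher group were L11 on 1A (-1.56 ± 0.36, edgeR adjusted p = 0.00653), L21 on 1B (-1.53 ± 0.22, edgeR adjusted p = 0.000224) and S18 on 1D (TraesCS1D02G167100, -1.25 ± 0.19, edgeR adjusted p = 0.000389). S18, a bacterial-type small subunit protein, had 8.74, 6.57 and 8.32 FPKM in HP30, 17.5, 18.4 and 17.6 FPKM in WT30, 7.45, 7.05 and 6.73 FPKM in HP20, and 3.70, 4.80 and 3.29 FPKM in WT20. Its mutant libraries lay between the wild-type ages. The 2 called higher were L28 on 1A (1.67 ± 0.23, edgeR adjusted p = 0.000171) and TraesCS1D02G246000 (1.70 ± 0.32, edgeR adjusted p = 0.00207). The 1D copy of L28 had -0.37 and was not called. With equal FPKM totals, where the median of all genes was -1.81, the 2 genes called higher stood at -0.078 and -0.060. Without the 3 libraries rich in ribosomal RNA the count called lower was 38 (27 cytosolic, against 42 with all libraries), with no share over all genes given here. With library totals alone the count was 93, with the median of all genes at -0.80 and 52.3% of all genes called lower.

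**Figure D4:**
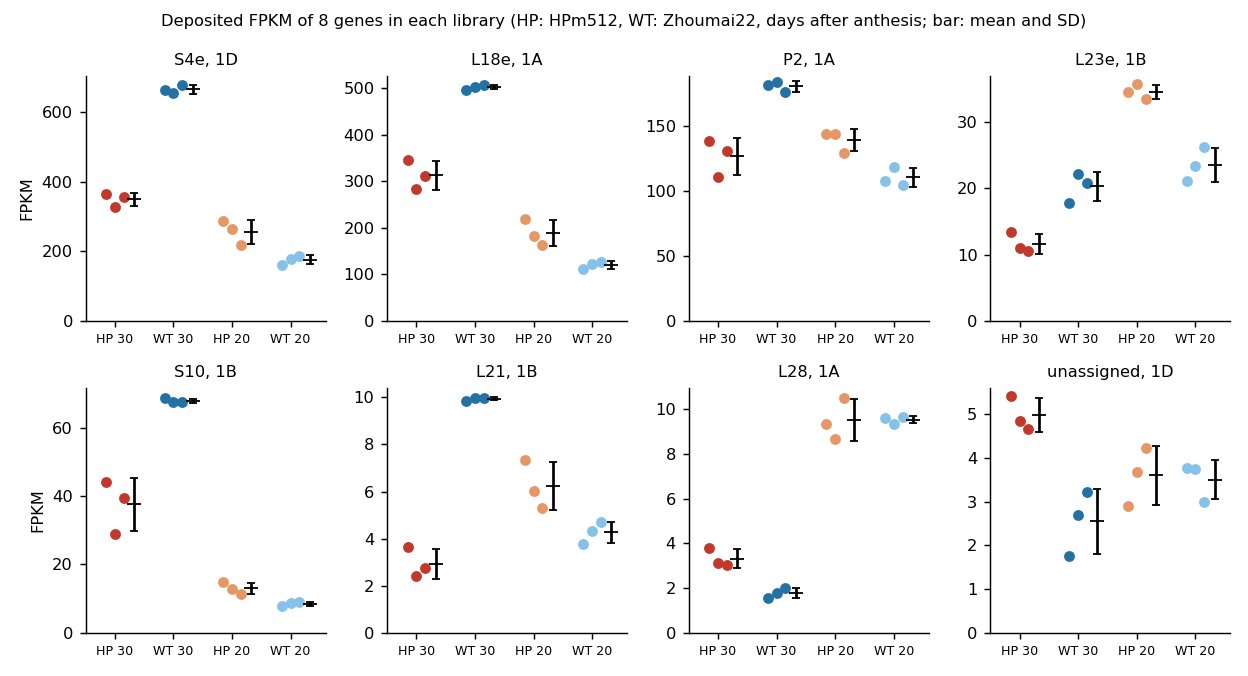
Deposited FPKM of 8 genes in each library, with the mean and SD of 3 libraries, in the order HP30, WT30, HP20, WT20. S4e, L18e and S10 are highest in WT30 and lowest in WT20, L23e is highest in HP20, and L28 on 1A is low at 30 days and lowest in WT30.

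Genes with the same KEGG entry are called copies of a protein here. Their sequences were not compared, and some lie at separate loci of a chromosome, such as the 6 copies of S18. How reads that match several genes were counted is not given in the sources used here, so the split of reads between alike copies is uncertain. For 20 cytosolic proteins with 53 copies, the highest copy had a median of 2.00 times the mean FPKM of the lowest, and for 13 bacterial-type proteins with 35 copies this ratio was 1.61. Within the cytosolic proteins the log2 fold changes of copies spanned a median of 0.12 in HP30 over WT30, 0.094 in HP20 over WT20, 0.26 in HP30 over HP20 and 0.36 in WT30 over WT20. Within the bacterial-type proteins these spans were 0.33, 0.32, 0.80 and 0.83. Of the variance of fold changes in these comparisons, 67.4, 34.97, 90.6 and 50.2% lay between proteins rather than between copies of a protein for the cytosolic type, and 50.5, 46.6, 70.4 and 81.4% for the bacterial type. Without L11e on 1B the cytosolic shares were 85.9, 75.3, 90.7 and 91.6%. In the difference of changes with age the share was 38.96% for the cytosolic type (80.3% without L11e on 1B) and 44.02% for the bacterial type. With so few copies per protein, such a share can be sizeable even where copies are unrelated. That level was not computed, so no share is read here as copies of a protein changing together. S18 had 6 tested copies, of which 4 were called lower in HP30 than in WT30, and its copy TraesCS1A02G247200 stood at -0.03. L11e had the widest ratio, 89.3, from its intermittent 1B copy.

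**Figure D5:**
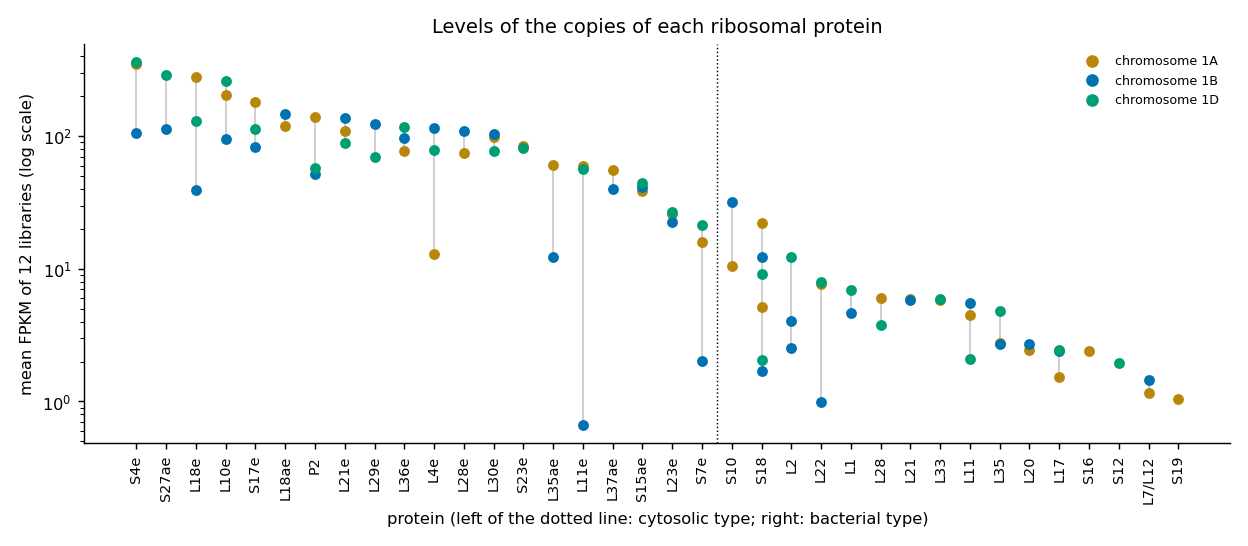
Mean FPKM over 12 libraries (log scale) of each tested copy of 36 ribosomal proteins, coloured by chromosome, with a line joining the copies of a protein. Cytosolic proteins (left of the dotted line) reach 362 FPKM and bacterial-type proteins (right) 31.7 FPKM, and no chromosome holds the highest copy throughout.

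Genes that serve ribosome assembly and translation were taken by their gene ontology terms, leaving out the ribosomal proteins. Their counts of calls stand beside shares over all genes tested of 29.9% higher and 27.9% lower with age in the mutant, 31.8% and 31.9% in wild type, and 13.6% higher and 9.3% lower in HP30 against WT30. All 8 tested ribosome biogenesis genes rose with age in the mutant and all 8 in wild type, with medians of 1.20 and 1.74, and 3 fell in HP30 against WT30. Of 6 rRNA processing genes, 3 rose in the mutant and 5 in wild type, and 4 fell in HP30 against WT30. Of 11 translation initiation factor genes, 3 rose and 2 fell in HP30 against WT30. The 3 that rose share the entry of eIF1, which helps the small subunit find the start codon (log2 0.62 to 0.70, edgeR adjusted p = 0.00012 to 0.00097). Of 16 aminoacyl-tRNA ligase genes, which charge tRNAs, 10 rose and 1 fell in wild type, and 3 rose and 3 fell in the mutant. At 20 days the gene lists for proteins had no call. Of 348 ribosomal RNA genes tested, 1 was called higher and 7 lower in HP20, near the shares over all genes of 0.419% and 1.87%, with a median of -1.23; WT20 replicates 2 and 3 are the libraries rich in ribosomal RNA, and their part in it was not tested. The only translation elongation factor gene was not tested, being under the filter.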

How the data were processed

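Total RNA of immature wheat grain was extracted with Trizol and made into Illumina TruSeq libraries, per the labels' protocols. The submitters' processing notes name cutadapt 1.9 and FastQC. For the aligner, counter, strand setting and build, the sources used here name nothing. Per the file headers, the deposited table has whole-number counts beside FPKM in every library. The deposited FPKM holds 1e-04 where the count is 0, read here as 0. The last of 25270 lines was incomplete and was left out.

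The table holds part of each library, so totals were recovered by setting counts against FPKM in 43 non-coding genes that reach 100 counts in each library (spread 0.23%). The 5723 genes at FPKM 1 or higher in 3 or more of 12 libraries were tested with edgeR 4.0.16 (quasi-likelihood, R 4.3.3) in 1 fit of 12 libraries with group means, TMM factors on these totals and Benjamini-Hochberg adjustment, at a threshold of 0.05. The common biological coefficient of variation was 21.2%. An SE is the absolute log2 fold change divided by the square root of F. The fit was also run on simulated data in which a small set of genes changed, in HP30 only. That run does not speak to the choice of scaling between groups.

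Alternatives were DESeq2 1.42.0, limma 3.58.1 on log2(FPKM + 1) and log2(FPKM + 0.1), other scalings and filters, the replicate number as a block, and left-out libraries. Protein names came from the table's KEGG entries. Genes named were the highest of each class, genes against the main direction, and copies called in opposite directions. Also named were the 3 largest called rises and falls per comparison without overlap and with at least 5 FPKM in the higher group. Others are marked where they were picked after their values were seen, with some exceptions. S15ae, S17e, L30e, L4e, S27ae, L11e on 1B, the S18 copy TraesCS1A02G247200 and the eIF1 genes were named outside these rules without a mark. The genes and lists were chosen with earlier results of these data known. No member identifier matched the reference table (0), and no sequence was used.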

Additional observations from a re-analysis of the deposited data

Results flagged for a closer look

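Ribosomal protein genes changed differently with age in the 2 cultivars. The test of the difference (edgeR, mutant minus wild type) called 58 of 102 genes lower and 2 higher, against 10.9% and 13.1% of all 5723 genes tested. Among single genes, the change with age was more positive in the mutant for L28 on 1A (TraesCS1A02G001800, 1.669) and for the unassigned gene TraesCS1D02G246000 (1.695). It was more negative in the mutant for L11 on 1A (TraesCS1A02G147700, -1.561), L21 on 1B (TraesCS1B02G415900, -1.528) and S18 on 1D (TraesCS1D02G167100, -1.252), all on the log2 scale. No group had more than 3 libraries, so no library was tested for standing apart.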

How the results depend on the processing

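Counts of genes called higher or lower depended mostly on scaling. With library totals alone, genes called higher were 71 in HP20 over WT20 and 34 in HP30 over HP20, and genes called lower were 22 in HP30 over HP20, 88 in HP30 over WT30, 2 in WT30 over WT20 and 93 in the difference of changes (mutant minus wild type), in the order given against 24.3, 13.5, 47.3, 45.3, 25.7 and 52.3% of all genes tested. With libraries scaled to equal FPKM totals, higher calls were 89 in HP20 over WT20, 16 in HP30 over HP20, and 0 in HP30 over WT30 and in the difference (58.9, 9.0, 4.16 and 3.42% of all genes). Lower calls there were 25 in HP30 over HP20, 94 in HP30 over WT30, 2 in WT30 over WT20 and 97 in the difference (51.6, 75.5, 13.4 and 78.1% of all genes), and the median of HP30 over HP20 turned to -0.12. limma on log2(FPKM + 1) gave 74 and 34 higher in the first pair and 25, 91, 2 and 94 lower in the same order (27.1, 14.4, 48.5, 46.1, 25.8 and 54.9% of all genes), and on log2(FPKM + 0.1) it gave 71 and 34 higher and 23, 91, 2 and 94 lower (22.9, 14.2, 48.2, 45.7, 25.6 and 52.7% of all genes). DESeq2 gave 23 higher in HP20 over WT20 (3.77% of all genes). A filter at FPKM of 5 or more, with 80 ribosomal protein genes tested, gave 11 there and 1 higher in HP30 over WT30 and in the difference. No filter, with 126 tested, gave 3 higher in HP30 over WT30. Without the WT20 libraries rich in ribosomal RNA 0 were higher in HP20 over WT20 and 3 lower in WT30 over WT20, and without all 3 such libraries, a setting chosen after seeing the data, the counts were 0, 3 and, in the difference, 38 lower. The 6 libraries of the pair alone gave 0 higher in HP20 over WT20. The cause was not tested.

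Leaving out each library in turn gave 0 to 12 higher in HP20 over WT20, 59 to 65 higher and 8 to 10 lower in HP30 over HP20, 2 to 3 higher and 39 to 57 lower in HP30 over WT30, 76 to 80 higher and 4 to 6 lower in WT30 over WT20, and 2 to 3 higher and 51 to 60 lower in the difference. Deviations from the group mean had correlations of -0.095 to 0.24 between same-numbered libraries (median -0.016, 18 pairs). Libraries with different numbers had -0.30 to 0.18 (median 0.00038, 36 pairs). Whether equal numbers pair the samples cannot be told from these values. With the replicate block 0 were higher in HP20 over WT20 and 47 lower in HP30 over WT30. No share over all genes is given for left-out libraries, filters, the replicate block or the 6 libraries of a pair. Counts under these settings are therefore not read as particular to ribosomal protein genes.

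Of 55 calls of named genes, 32 held in every alternative run for them, which were 22 or 23 each. With equal FPKM totals, signs turned in HP30 over HP20 for TraesCS1A02G105400 (-0.0086), TraesCS1A02G388500 (-0.19) and TraesCS1D02G025100 (-0.15), in WT30 over WT20 for TraesCS1A02G148400 (0.71), TraesCS1B02G166100 (0.60) and TraesCS1D02G246000 (0.36), and in the difference for TraesCS1A02G001800 (-0.078) and TraesCS1D02G246000 (-0.060). TraesCS1A02G388500 in HP30 over HP20 also turned with library totals alone (-0.0034) and with limma (-0.0034 and -0.0042). Depth limits the low genes: those under the filter were not tested.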

Other observations

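The unassigned gene with the highest level, TraesCS1A02G105400 on 1A (101334864 to 101335739), followed the cytosolic genes. It had 64.5, 55.8 and 65.7 FPKM in HP30, 110.1, 119 and 118 FPKM in WT30, 56.7, 59.8 and 47.1 FPKM in HP20, and 33.2, 37.1 and 46.2 FPKM in WT20. WT30 was highest and WT20 lowest, and HP30 overlapped with HP20. The gene was called lower in HP30 than in WT30 (log2 -0.43 ± 0.11, edgeR adjusted p = 0.0123), a call lost without WT30 replicate 2 (-0.39).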
